A study of Mus musculus with 4 samples.

Results

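The 50 genes described here belong to the G2/M and mitosis program, the set of transcripts that cells build up after DNA replication and use up in division. The members were taken by symbol from a list that was written with earlier results of these data known, though no measured value enters the rule. All 50 were found among the 32272 gene rows of a single-nucleus multiome matrix, which holds RNA UMIs and ATAC counts of the same nuclei. Of the 174339 ATAC peaks, 57 lay within 1 kb of a member's start interval.

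The nuclei came from bone marrow hematopoietic stem and progenitor cells (HSPCs), sorted as Lin- cKit+ cells from male C57BL/6 wild type mice 8 weeks of age, with the bones of several mice pooled for each group. One group (Lig) carried silk ligatures on the molars for 14 days, a model of periodontitis, and the other (Ctrl) carried none, and each group was 1 sample with an RNA and an ATAC library. The deposited matrix marks its barcodes with suffix 1 or 2 only. No label ties a suffix to Ctrl or Lig, so the suffixes are called library 1 and library 2 here, which of them is which group is not known, and no comparison of ligature with control was made.

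In G2, Cdk1 with its cyclin B partners (Ccnb2) is switched on by the phosphatase Cdc25c and drives entry into mitosis. Condensin (Smc4, Ncapd2) and topoisomerase II (Top2a) shape the chromosomes, kinetochore proteins (Ndc80, Nuf2, Cenpe, Cenpf) attach them to the spindle, and the kinase Aurkb with Birc5 and Cdca8 corrects wrong attachments. The anaphase-promoting complex with Cdc20 and Ube2c then ends mitosis, and Ect2, Anln, Kif23 and Kif20b carry out cytokinesis. In bone marrow, early B-lineage cells and erythroid precursors are known to divide rapidly, whereas most long-term stem cells are at rest.

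Of 18961 barcodes, 13619 met the limits of the rule (200 genes or more, with ATAC counts from 1000 to 50000), 5905 of 8762 in library 1 and 7714 of 10199 in library 2. The median nucleus held 1641 UMIs in library 1 and 1516.5 in library 2, and 43.0% and 53.2% of all UMIs fell on 3 genes of the ribosomal RNA locus. Levels are therefore given in CPM, counts-per-million of the UMIs outside that locus, which numbered 953 and 723 in the median nucleus. Intervals in brackets are exact 95% intervals and cover counting error only, since there are no replicates, and no test was possible. The libraries shared 72 barcode sequences among kept nuclei.

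The nuclei were clustered on RNA and ATAC together without 159 cell cycle genes, all members among them, and without 203 peaks near them, so that these genes did not form the clusters. Genes outside these lists whose level followed the members, such as Pclaf and Fbxo5, were not left out. Of 20 clusters, 16 took a name from lineage markers and 4, with 40.1% of the nuclei, did not. Named classes carry the ending -like: HSC for stem cells, LMPP for lymphoid-primed progenitors, GMP for granulocyte-monocyte progenitors, NeuP for neutrophil precursors, and EryP, MkP, BaP, pDCP, cDCP and cMoP for progenitors of erythroid, megakaryocyte, basophil, plasmacytoid dendritic, conventional dendritic and monocyte cells. The 9 classes with at least 100 nuclei in each library are called lineages below.

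Among the 9 lineages, the G2/M program was highest in pro-B-like nuclei and lowest in GMP-like nuclei in both libraries. Summed over the 50 genes, pro-B-like nuclei held 14382 (14152 to 14616) CPM in library 1 and 11314 (10962 to 11673) in library 2. GMP-like nuclei held 4594 (4358 to 4838) and 4309 (4149.8 to 4473), which put pro-B-like nuclei 3.13-fold higher (2.97 to 3.31) in library 1 and 2.63-fold higher (2.5 to 2.76) in library 2. These 2 lineages were taken as the highest and the lowest, so the folds are a description. With the cell cycle genes kept in the clustering, HSC-like nuclei took the lowest place in library 1 (2.998-fold). Over all kept nuclei the members took 43671 UMIs (0.745% of those outside the ribosomal locus) in library 1 and 32985 UMIs (0.562%) in library 2.

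NeuP-like nuclei held 7785 (7238 to 8361) and 6493 (6117 to 6887) CPM, 1.70-fold (1.55 to 1.85) and 1.51-fold (1.40 to 1.62) above GMP-like nuclei. They came next after pro-B-like nuclei in library 1, whereas MkP-like nuclei did in library 2. EryP-like nuclei held 6724 (6480.4 to 6975) and 6047 (5758 to 6348) CPM, pDCP-like nuclei 7005 (6799 to 7215) and 6131 (5919.7 to 6348), and MkP-like nuclei 6679.9 (6245 to 7138) and 6569 (6138 to 7022). Among these lineages the order was not fixed: the EryP, pDCP and MkP intervals overlapped in library 1, and NeuP and MkP overlapped in library 2. BaP-like nuclei held 5411 (4963 to 5888) and 6009 (5525 to 6524) CPM. Of the pDCP-like nuclei, 1084 came from a cluster led by Ephb2, Ccnd1 and Osbpl3, with 3 of 9 markers raised, at 7157 (6941 to 7377) and 6161 (5946 to 6382) CPM. The other 85, led by Siglech, had 5 of 9 raised and lay at 5051 (4417 to 5751) and 5216 (4166 to 6450).

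The stem-like end of the tissue was low. HSC-like nuclei held 5251 (4997 to 5514) and 4879.5 (4607 to 5164) CPM and LMPP-like nuclei 4954 (4771 to 5142) and 5267 (5052 to 5489). The LMPP to HSC ratio was 0.944 (0.887 to 1.004) in library 1 and 1.08 (1.01 to 1.16) in library 2, so the libraries gave no common order for this pair. GMP-like nuclei lay below HSC-like nuclei in both, at 0.875 (0.814 to 0.940) and 0.883 (0.825 to 0.946) of their level.

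Within a class, clusters differed. Both pro-B-like clusters fitted their name by markers that are no members: 10 and 9 of the 10 markers on the list were raised, with Ebf1, Blnk and Pax5 among the leading genes of the larger one and Igll1 among those of the other. The pro-B-like nuclei split into a cluster led by Cplx2, Gfra2 and Cecr2 with 15858 (15598 to 16121) and 12288 (11890.0 to 12695) CPM, and a cluster led by Gm32569, Cacna1e and Ankrd33b with 4499 (4146 to 4873) and 5899.6 (5263 to 6592). The first held 13.7% of the nuclei and 32.5% of all member UMIs in library 1, and 5.12% and 10.95% in library 2. EryP-like nuclei led by Sox6 lay 1.37-fold (1.26 to 1.48) and 1.29-fold (1.15 to 1.45) above those led by Zg16. Small classes also stood out: the 66 and 97 cDCP-like nuclei held 12267 (11415 to 13166) and 8411 (7680.1 to 9194) CPM, 2.48-fold (2.28 to 2.68) and 1.60-fold (1.45 to 1.76) above LMPP-like nuclei.

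**Figure D1:**
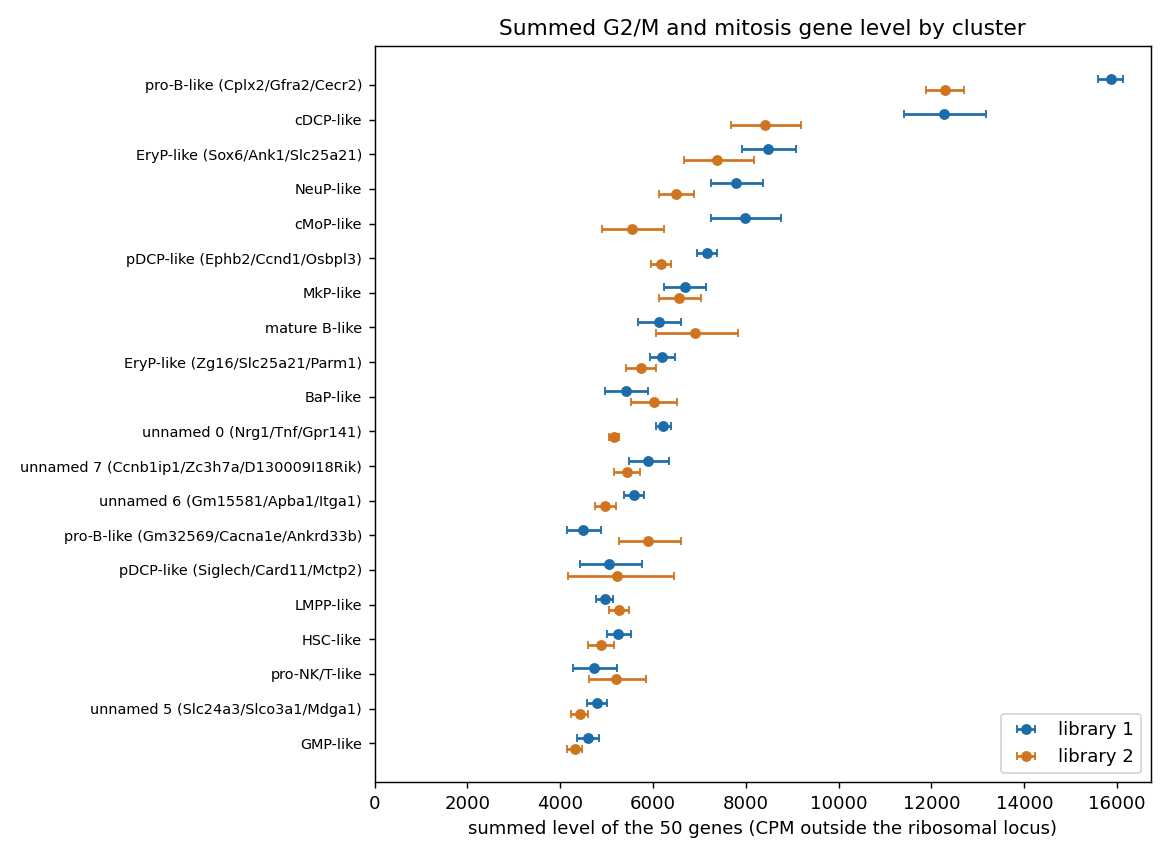
Summed level of the 50 G2/M and mitosis genes (x axis, CPM outside the ribosomal locus) in each of the 20 clusters (y axis), blue for library 1 and orange for library 2, with exact 95% Poisson intervals as bars. The pro-B-like cluster led by Cplx2 stands at 15858 and 12288 CPM, and GMP-like nuclei at 4594 and 4309, while the pro-B-like cluster led by Gm32569 is lower still in library 1 at 4499.

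Of the 50 members, 49 had at least 20 UMIs in each library. The exception was Psrc1, a spindle protein gene, with 25 UMIs in library 1 and 18 in library 2. Counts were uneven: the 7 genes of chromosome structure took 46.5% and 47.1% of the member UMIs, the 13 spindle genes 13.9% and 12.9%, the 3 nuclear envelope genes 10.8% and 11.8%, the 4 cytokinesis genes 9.22% and 8.49%, the 6 centromere and kinetochore genes 9.03% and 7.86%, the 14 kinase, cyclin and mitotic exit genes 8.56% and 9.71%, and the 3 passenger complex genes 2.02% and 2.21%. Without Hmgb2, the member with the most UMIs, the Cplx2 cluster still lay 3.16-fold (2.99 to 3.35) and 2.64-fold (2.46 to 2.84) above HSC-like nuclei.

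Per kb of gene span, which sets long and short genes on one scale, Hmgb2 led with 1423 UMIs in library 1 and 1302 in library 2. Hmgb2 encodes a chromatin protein that bends DNA. Cks2, a small subunit that binds Cdk1, had 155 and 148 UMIs per kb, and Top2a had 151 and 104. The next genes were Smc4 (135 and 92.9 UMIs per kb), Mki67 (125 and 80.4) and the tubulin Tubb4b (109.7 and 95.2). They were followed by Lbr, Birc5, Cks1b and Anp32e, which ranged from 59.8 (Cks1b) to 88.7 (Lbr) UMIs per kb in library 1. These 10 were the highest of the 50 on this scale, which counts introns as well as exons in the length.

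Top2a lies on chromosome 11 at 98992943 to 99024189 on the minus strand (ENSMUSG00000020914, GRCm38). It was at 1846 (1764 to 1931) CPM in pro-B-like nuclei of library 1 and 1375 (1255 to 1504) in those of library 2. In GMP-like nuclei Top2a was at 326 (265 to 396) and 350.0 (306 to 399) CPM. The other 7 lineages lay between: Top2a ran from 445 (HSC) to 765 (NeuP) CPM in library 1 and from 506 (LMPP) to 699 (MkP) in library 2.

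Mki67, which coats mitotic chromosomes and is the usual marker of dividing cells, lies on chromosome 7 at 135689784 to 135716361 on the minus strand (ENSMUSG00000031004, GRCm38). It followed the same order at the ends: Mki67 was at 1285 and 885 CPM in pro-B-like nuclei and 248 and 212 in GMP-like nuclei of libraries 1 and 2. Smc4, a condensin core subunit, was at 1316 and 949 CPM in pro-B-like nuclei, but its lowest lineages were LMPP-like (386) in library 1 and HSC-like (326) in library 2. Hmgb2 was raised in 2 lineages rather than 1, at 1669.5 and 1658 CPM in pro-B-like nuclei and 1633 and 1423 in NeuP-like nuclei, against 678 and 838 in LMPP-like nuclei.

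With the libraries pooled, the 6 centromere and kinetochore genes were highest in pro-B-like and lowest in GMP-like nuclei. In each library taken alone, 4 of them were highest in pro-B-like nuclei, and 1, Cenpf, was also lowest in GMP-like nuclei. Cenpf, a large kinetochore and nuclear matrix protein gene, was at 399.6 (362 to 440.2) and 346 (287 to 414) CPM in pro-B-like nuclei and at 38.7 (20.002 to 67.6) and 49.997 (34.2 to 70.6) in GMP-like nuclei. Pooled over both libraries this was 8.34-fold, the highest fold among the 48 members with at least 50 UMIs in each library. Cenpe, a motor protein gene that moves chromosomes to the equator, was at 435 and 329 CPM in pro-B-like nuclei, with its lowest lineages at 85.9 (LMPP) and 78.1 (GMP). Ndc80, which forms the grip of the kinetochore on microtubules, was at 139 and 112 CPM in pro-B-like and 25.8 and 18.7 in GMP-like nuclei, 6.29-fold apart over both libraries.

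Of the 13 spindle genes, 10 were highest in pro-B-like nuclei with the libraries pooled, and 3 of these, Kif11, Nusap1 and Hmmr, were lowest in GMP-like nuclei. Kif11, the motor that pushes spindle poles apart, was at 603 (556 to 652) and 407 (342 to 479) CPM in pro-B-like nuclei against 83.9 (54.8 to 123) and 85.9 (64.7 to 112) in GMP-like nuclei. Nusap1, which bundles spindle microtubules, was at 166 and 127 CPM in pro-B-like, 145 and 82.0 in NeuP-like and 22.6 and 29.7 in GMP-like nuclei. Gas2l3 and Dlgap5 had pooled folds of 7.02 (2.70 to 26.0) and 6.77 (2.27 to 33.2), but over BaP-like nuclei with 4 and 3 UMIs. Ckap5, a microtubule polymerase, was at 469 and 340.2 CPM in pro-B-like nuclei and at 186 and 114 in HSC-like nuclei.

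Tubb4b was highest outside the B lineage. It was at 91.6 and 60.8 CPM in MkP-like nuclei and 51.7 and 81.5 in EryP-like nuclei, against 35.1 and 28.9 in pDCP-like nuclei, a pooled fold of 2.36 (1.30 to 4.17) between MkP-like and pDCP-like nuclei. Ckap2l, also a spindle gene, was highest in MkP-like nuclei in library 1 (84.0 CPM) and in LMPP-like nuclei in library 2 (39.8), with a pooled fold of 2.32 (1.05 to 5.07) between MkP-like and EryP-like nuclei. With Hmgb2 (2.31-fold), Rangap1 (2.23-fold) and Cks1b (2.04-fold) these were the 5 flattest members with at least 50 UMIs in each library.

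Among the kinase and cyclin genes, Cks2 differed from the program in its lineage. Cks2 was highest in BaP-like nuclei, at 272 (179 to 395) and 296 (196 to 427) CPM, with EryP-like nuclei at 244 and 196 and pro-B-like nuclei at 142 and 159. BaP-like nuclei held 27 and 28 UMIs of Cks2. Bub1, a spindle checkpoint kinase gene, was at 156 and 124 CPM in pro-B-like nuclei and 39.3 and 36.7 in HSC-like nuclei, and BaP-like nuclei of library 1 held 2 UMIs of it (20.1 CPM). Nek2 and Cdc25c had pooled folds of 6.21 (1.06 to 251) and 5.90 (1.86 to 29.995), which rest on 1 UMI of Nek2 in BaP-like nuclei and 3 UMIs of Cdc25c in EryP-like nuclei.

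Of the passenger complex, Birc5 (survivin) was at 155 and 144 CPM in pro-B-like nuclei and at 30.2 (BaP, 3 UMIs) and 65.6 (pDCP) in the lowest lineages of libraries 1 and 2. Cdca8 was at 72.9 and 37.5 CPM in pro-B-like nuclei, and Aurkb had a pooled fold of 6.52 (1.73 to 54.9) over NeuP-like nuclei, where 2 UMIs were counted. Of the nuclear envelope genes, Lbr, which tethers chromatin to the inner membrane, was at 655 and 536 CPM in pro-B-like and 284 and 255 in GMP-like nuclei, and Tmpo at 429 and 372 and 132 and 117. Lbr was the flatter of the pair, at 2.37-fold between these lineages over both libraries.

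The cytokinesis genes were highest in the B lineage. Kif23 was also high in pDCP-like nuclei, most of which came from the cluster led by Ephb2, with 3 of 9 markers raised. Kif23, a motor of the central spindle, was at 395 (357 to 435) and 277 (224 to 338) CPM in pro-B-like nuclei and at 305 (263 to 351) and 276 (232 to 325) in pDCP-like nuclei, with intervals that overlapped in library 2. GMP-like nuclei held 83.9 and 96.9 CPM of Kif23. Kif20b was at 395 and 274 CPM in pro-B-like nuclei, and Ect2, which switches on the contractile ring, was at 293 and 190.3 CPM in pro-B-like against 74.2 and 37.5 in GMP-like nuclei.

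Taking each member on its own, the pro-B-like lineage was the highest of the 9 for 44 of 50 members in library 1 and for 33 in library 2. The share of all genes highest in pro-B-like nuclei was not computed. These counts, and those by role above, are therefore a description only. The lowest lineage was less regular: BaP-like for 18, GMP-like for 11 and LMPP-like for 7 members in library 1, and GMP-like for 15, HSC-like for 12 and BaP-like for 9 in library 2. BaP-like and MkP-like nuclei were few, so a lowest place there can rest on a few UMIs.

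**Figure D2:**
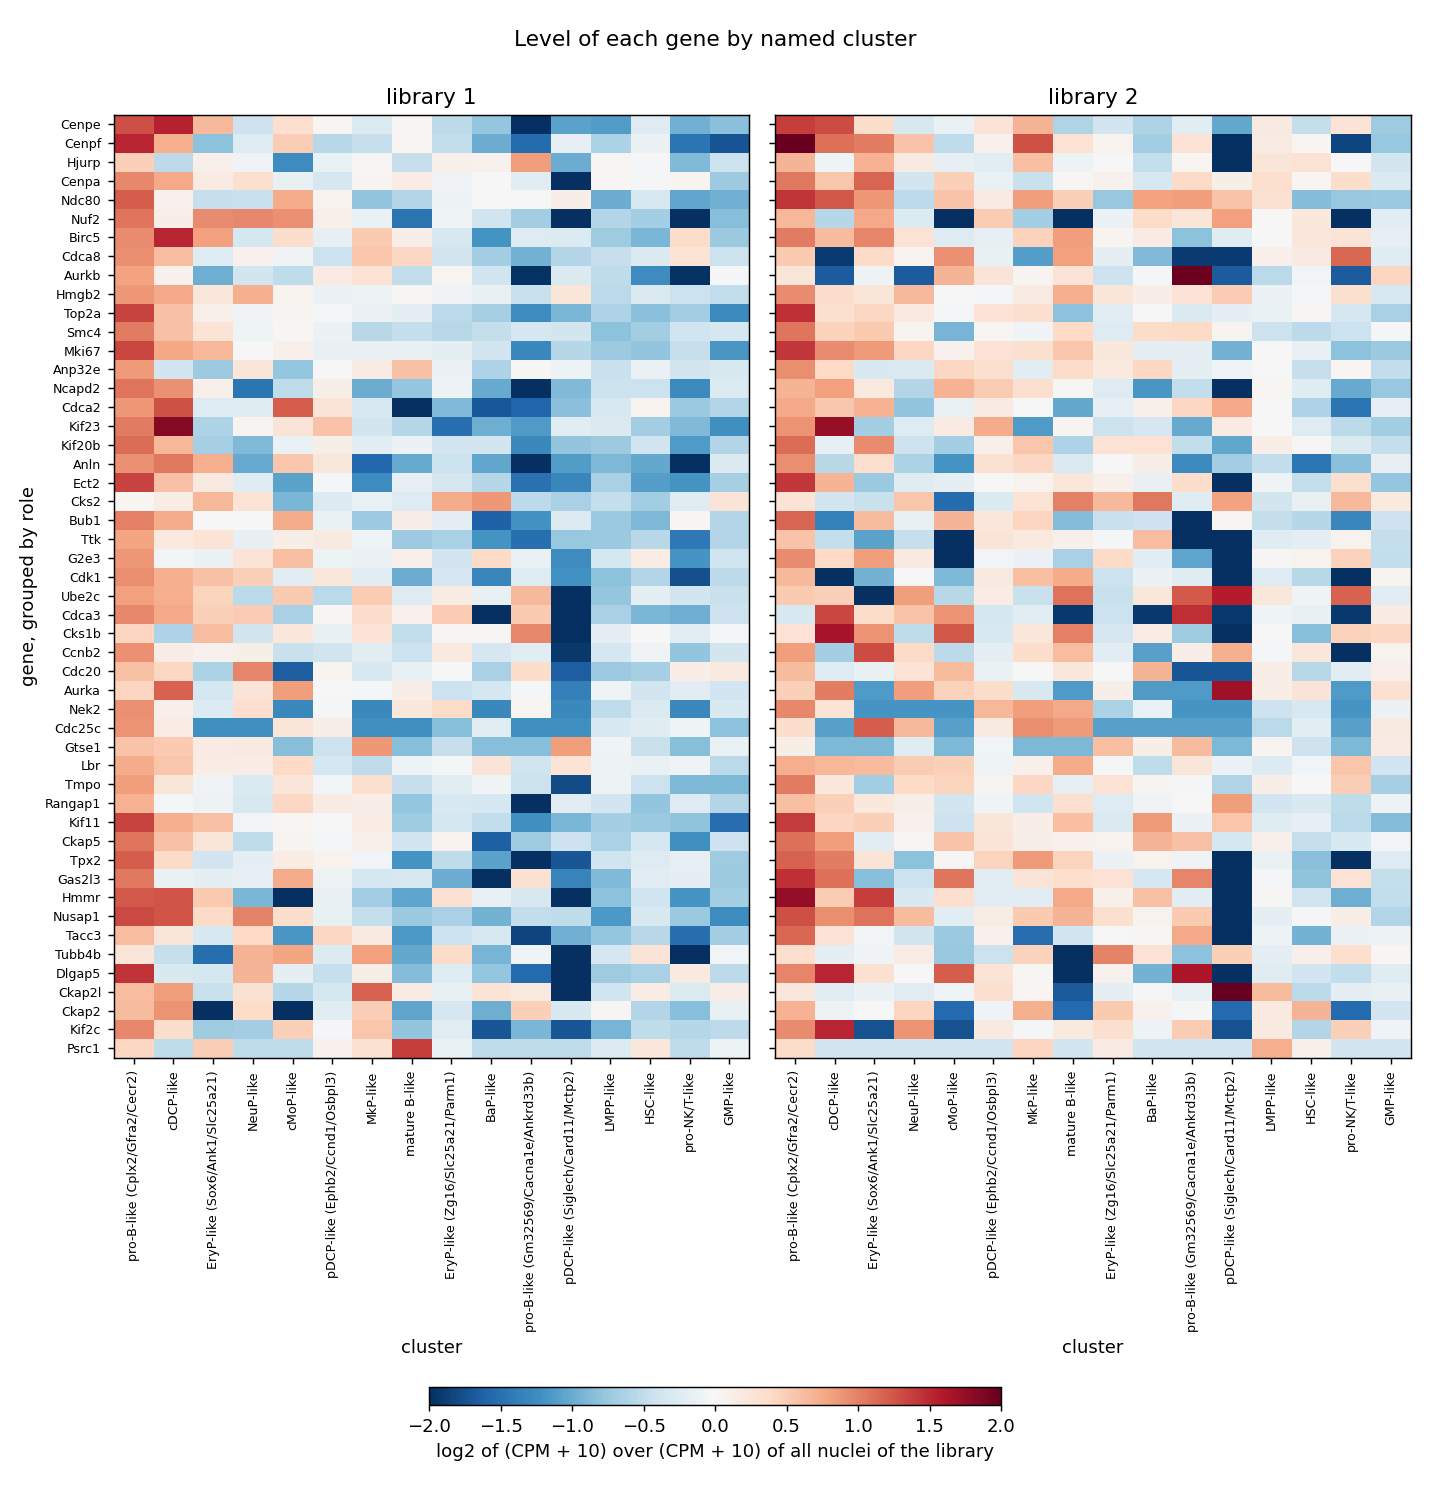
Level of each of the 50 genes (y axis, grouped by role) in the 16 named clusters (x axis) as colour, log2 of (CPM + 10) over (CPM + 10) of all nuclei of the same library, with the scale ending at 2 above and below. The column of the Cplx2 pro-B-like cluster is red for almost every gene in both libraries, and dark blue squares in small clusters are genes with few or no UMIs there.

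The members were next compared between the pair of pro-B-like clusters, which share the lineage name and were chosen because their summed member levels differ, so that all values of the pair are a description. The Cplx2 cluster lay 3.53-fold (3.25 to 3.83) above the Gm32569 cluster in library 1 and 2.08-fold (1.86 to 2.35) in library 2. Of all 50 members, 48 were higher in the Cplx2 cluster in library 1, with Cks1b and Hjurp lower, and 45 in library 2, with Ube2c, Aurkb, Gtse1, Cdca3 and Dlgap5 lower. Only 46 and 42 members had UMIs in both clusters, and the share of all genes higher in the Cplx2 cluster was not computed. Members reached a minimum of 50 UMIs in the pair mostly through the Cplx2 cluster, which held 14191 member UMIs against 601 in library 1 and 3612 against 312 in library 2, and the counts that follow support nothing further. Of the 42 members with that minimum in library 1, 33 (78.6%) were at least 2-fold higher in the Cplx2 cluster, beside 15.4% of the 3922 genes tested. In library 2 it was 14 of 21 (66.7%), beside 9.82% of 1140 genes. The median fold of the tested members was 3.45 and 2.56, beside 1.04 and 0.996 over all genes tested. The clusters also differed in depth, at 1806 against 841 UMIs in the median nucleus in library 1 and 1417 against 778 in library 2, and the part of depth in the difference was not tested.

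The roles gave different folds in this pair, with wide intervals in library 2. Cytokinesis genes were 6.75-fold (4.70 to 10.04) and 3.43-fold (2.08 to 6.08) higher in the Cplx2 cluster in libraries 1 and 2, on 30 and 16 UMIs in the Gm32569 cluster. Spindle genes were 4.03-fold (3.22 to 5.11) and 1.87-fold (1.40 to 2.55) higher, and chromosome structure genes 3.67-fold (3.26 to 4.16) and 2.11-fold (1.78 to 2.51). Passenger complex genes were at 3.75-fold (2.06 to 7.59) and 1.55-fold (0.745 to 3.74), centromere genes at 3.17-fold (2.48 to 4.13) and 2.37-fold (1.60 to 3.64), kinase and cyclin genes at 2.16-fold (1.69 to 2.79) and 2.05-fold (1.34 to 3.29), and nuclear envelope genes at 2.65-fold (2.08 to 3.43) and 1.63-fold (1.17 to 2.35). The interval of cytokinesis overlapped those of the other roles in library 2, and against HSC-like nuclei passenger complex genes (4.10-fold) came before cytokinesis (3.83-fold) in library 1 and spindle genes (3.29-fold before 2.93-fold) in library 2.

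Top2a was at 2073 (1979.6 to 2169) CPM in the Cplx2 cluster and 329 (239 to 442) in the Gm32569 cluster in library 1, and at 1541 (1402 to 1689.7) and 454 (291 to 675) in library 2. Mki67 was at 1444 and 225 CPM in library 1 and at 987 and 321 in library 2. Tpx2, which builds spindle microtubules around chromosomes, had 209 UMIs in the Cplx2 cluster and 1 in the Gm32569 cluster of library 1, and this single UMI makes its 31.2-fold (5.54 to 1238) the highest of the members with UMIs in both clusters.

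At the other end, Hjurp, which loads the centromeric histone Cenpa, stood at 0.772-fold (0.535 to 1.14) in library 1, on 181 and 35 UMIs. In library 2 Hjurp stood at 1.62-fold (0.645 to 5.23) on 45 and 5 UMIs. Both intervals include equal levels, so neither library gave Hjurp a direction. Aurkb had 53 UMIs in the Cplx2 cluster and 0 in the Gm32569 cluster in library 1, but 8 and 6 in library 2, at 0.240-fold (0.073 to 0.839). Cdca3 stood at 0.216-fold (0.0549 to 0.894) in library 2, on 6 and 5 UMIs, and at 1.43-fold (0.657 to 3.69) in library 1. The library 2 intervals of Aurkb and Cdca3 thus lay below equal levels, on few UMIs.

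Related gene lists were described in the same pair, where most of their UMIs also lay in the Cplx2 cluster. Of all genes tested in the pair, 15.4% and 9.82% were at least 2-fold higher in the Cplx2 cluster. The 52 other mitosis genes, none of them members, were 5.59-fold (4.86 to 6.48) and 2.96-fold (2.43 to 3.63) higher in the Cplx2 cluster, with 39 of 42 and 9 of 10 tested genes past 2-fold. The 43 S phase genes were 3.15-fold (2.82 to 3.53) and 1.73-fold (1.48 to 2.03) higher, with 31 of 37 and 5 of 10. The 15 regulators of the program, which include Foxm1, Mybl2 and subunits of the DREAM and NF-Y complexes, were 1.79-fold (1.49 to 2.17) higher in library 1 and 1.25-fold (0.923 to 1.72) in library 2, where the interval includes equal levels. Of the regulators 4 of 11 and 0 of 1 tested were past 2-fold.

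Against HSC-like nuclei the order of the lists was similar. The Cplx2 cluster held 3.02-fold (2.87 to 3.18) and 2.52-fold (2.36 to 2.69) more of the members, 3.24-fold and 2.67-fold more of the other mitosis genes, 2.17-fold (2.03 to 2.31) and 1.5-fold (1.39 to 1.63) more of the S phase genes, and 1.58-fold and 1.23-fold more of the regulators. The Cplx2 cluster was singled out for its member level, so the order of the lists is a description.

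Shares of nuclei were compared at equal depth, after each nucleus was thinned to 500 UMIs outside the ribosomal locus. This left 5123 nuclei in library 1 and 6223 in library 2, with 782 and 1491 too shallow. Of these, 48.5% (47.2 to 49.9%) in library 1 and 42.1% (40.9 to 43.4%) in library 2 held UMIs of 3 or more members, beside 68.9% and 59.2% before thinning over all kept nuclei. In the Cplx2 cluster the share was 87.6% (85.0 to 89.9%) and 84.2% (79.7 to 88.0%), and in GMP-like nuclei 37.1% (31.6 to 42.9%) and 29.7% (26.3 to 33.2%). These populations were taken for their high and low summed level, so the shares are a description. GMP-like nuclei were not the lowest by share in library 1, where HSC-like (33.1%) and LMPP-like nuclei (34.3%) lay below them.

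Free RNA was not removed, and no class of these nuclei is certain to lack the program. The lowest share among the named classes was 19.5% (11.8 to 29.4%) in the 87 pro-NK/T-like nuclei of library 1, whereas the 35 of library 2 gave 48.6% (31.4 to 66.0%). HSC-like nuclei gave 33.1% (27.6 to 39.0%) and 34.4% (28.6 to 40.4%) and LMPP-like nuclei 34.3% (30.1 to 38.8%) and 39.2% (34.8 to 43.7%), and shares in this range were not read as expression. With 6 or more members, a limit chosen after the data were seen, the share was 55.6% (51.9 to 59.2%) and 39.6% (34.1 to 45.2%) in the Cplx2 cluster and 3.01% (1.39 to 5.64%) and 2.01% (1.10 to 3.34%) in GMP-like nuclei.

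Nearly all nuclei of the Cplx2 cluster held member UMIs. At 500 UMIs the median nucleus held 7 member UMIs in library 1 and 6 in library 2, and 1.21% and 0.316% of the nuclei held none. The 10% of nuclei with the most member UMIs held 20.7% and 22.1% of them. In GMP-like nuclei the median was 2 in both libraries, 14.4% and 12.5% held none, and the top 10% held 26.6% and 25.02%. The variance over the mean went the other way, at 2.34 and 1.91 in the Cplx2 cluster and 1.41 and 1.15 in GMP-like nuclei. The mean also differed, at 7.82 and 6.21 against 2.32 and 2.16 UMIs, and its part in both measures was not tested.

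ATAC counts, a readout that the RNA did not choose, did not differ in one direction between nuclei with and without members. The median was 23375 in nuclei with 3 or more members against 20222.5 in nuclei with no member UMI in library 1, a ratio of 1.16. In library 2 it was 18700 against 17727, a ratio of 1.05. Nuclei of 1 library are no replicates, so these ratios are a description. Nuclei with 10 or more members were lower, at 17322 in library 1 (133 nuclei, 106 of them pro-B-like) and 11119 in library 2 (22 nuclei), whereas those with 6 or more were at 23669 and 18987, and within pro-B-like nuclei of library 1 those with 10 or more were at 15836.5 against 14177 with none. In GMP-like nuclei of library 2 the median was 20096 with 3 or more members against 22255 with none. The gap was wider in pro-B-like nuclei (21583.5 with 3 or more) and LMPP-like nuclei (23205 against 16396) of library 1. It was also wider in pDCP-like nuclei of library 2 (23464 against 19744). Of the pro-B-like nuclei of library 1, 22 of the 31 with none came from the Gm32569 cluster, and 651 of the 684 with 3 or more from the Cplx2 cluster. In pro-B-like nuclei of library 2 the order was the other way, at 15684 with 3 or more against 20075 with 1 to 2 members. Over all nuclei the quartiles overlapped widely, from 8843 to 33986.5 and from 9211 to 28592.8 in library 1. Depth in RNA differed as well between nuclei with 3 or more members and with none, at 1104 against 924 UMIs outside the ribosomal locus in library 1 and 813 against 763 in library 2, and its part was not tested.

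Whether the members appear in the same nuclei was described with Top2a. At 500 UMIs, 2738 nuclei held a Top2a UMI and 8608 held none, and each gene was compared between these within the same cluster and library. Of the 44 members with enough UMIs, 14 were at least 1.5-fold higher in nuclei with Top2a, beside 1.43% of the 6761 genes tested. Their median ratio was 1.40, beside 0.999 over all genes. The other mitosis genes behaved alike, with 20 of 45 past 1.5-fold and a median of 1.46, whereas 0 of 40 S phase genes passed, with a median of 1.06, and 0 of 12 regulators, with a median of 1.13.

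The highest ratios were those of Ckap2l (1.68), Ect2 (1.66), Kif23 (1.65), Cenpf (1.64) and Ttk (1.64), a checkpoint kinase gene. Outside pro-B-like nuclei, Ckap2l stood at 1.85, Ect2 at 1.83, Kif23 at 1.74, Cenpf at 1.46 and Ttk at 1.77. Tubb4b (1.004) and Lbr (1.06) were near 1. Ccnb2, a B-type cyclin, was the lowest at 0.922, and at 1.31 outside pro-B-like nuclei. Ckap2l and Ccnb2 rested on few UMIs, 129 and 133 outside pro-B-like nuclei, and no interval is given for these ratios. Some genes outside the lists stood higher on similar counts, such as Efcab11 (2.14 on 141 UMIs) and Wdr83os (1.89 on 146).

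Between the libraries the members were read relative to the shift of all genes. The median gene with at least 20 UMIs in each library lay at a log2 ratio of -0.35 (library 2 over library 1). None of the 49 members was past 2-fold from this median in either direction, beside 350 of 10611 genes (3.3%). In the Cplx2 cluster 0 of 34 were, beside 3.94% of 2590 genes. For so few members both counts are near the background share. The median member lay at -0.10 relative to all genes, with 17 of 49 members above. This sign turned to 0.04 when nuclei had to hold at least 500 genes.

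Cks1b, a small subunit of Cdk complexes, stood highest and Ect2 lowest. Relative to all genes, Cks1b (29.7 and 37.3 CPM over all nuclei) stood at 0.678, Ccnb2 at 0.611, Gtse1 at 0.464, Cdc20 at 0.436 and Kif2c at 0.388 in log2 (library 2 over library 1). On the other side were Ect2 (-0.44), Cenpf (-0.37), Gas2l3 (-0.37), Ttk (-0.31) and Ndc80 (-0.31). Gtse1 rested on 47 and 51 UMIs in libraries 1 and 2, and Kif2c on 134 and 138. These ratios are over all nuclei, where the clusters had unequal shares. Within the Cplx2 cluster Ect2 stood at -0.40, Ttk at -0.61, Ndc80 at -0.073, Cenpf at 0.046 and Gas2l3 at 0.047. Of the 5 highest, only Ccnb2 (0.415) had 20 UMIs there in each library.

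The lineages did not share one direction. Relative to all genes, the median member was at -0.14 in pro-B-like nuclei (13 of 35 members above), 0.21 in HSC-like (10 of 16), 0.35 in GMP-like (15 of 18), 0.30 in LMPP-like (22 of 24), 0.16 in pDCP-like (21 of 31), 0.14 in EryP-like (14 of 24), 0.19 in MkP-like (7 of 11), 0.18 in NeuP-like (6 of 9) and 0.33 in BaP-like nuclei (4 of 6). In plain CPM the sum over GMP-like nuclei was 0.938 (0.880 to 1.001) of that in library 1, and over pro-B-like nuclei 0.787 (0.759 to 0.815). With a minimum of 10 UMIs the HSC-like median fell to 0.04, and with the cell cycle genes kept in the clustering the GMP-like median was 0.16. No counting interval was computed for a median over members. These ratios passed a filter of 20 UMIs, which keeps the members that are well counted in that lineage.

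The share of pro-B-like nuclei was 17.6% in library 1 and 6.75% in library 2. Over all nuclei the level was 7447 CPM in library 1 and 5616 in library 2. With the cluster levels of library 1 and the cluster shares of library 2 it came to 6397, and with the levels of library 2 and the shares of library 1 to 6465. Both exchanges lay between the libraries, and no group can be attached to either library. Each exchange moved the shares of all 20 clusters together, and the part of the pro-B-like share was not tested.

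**Figure D3:**
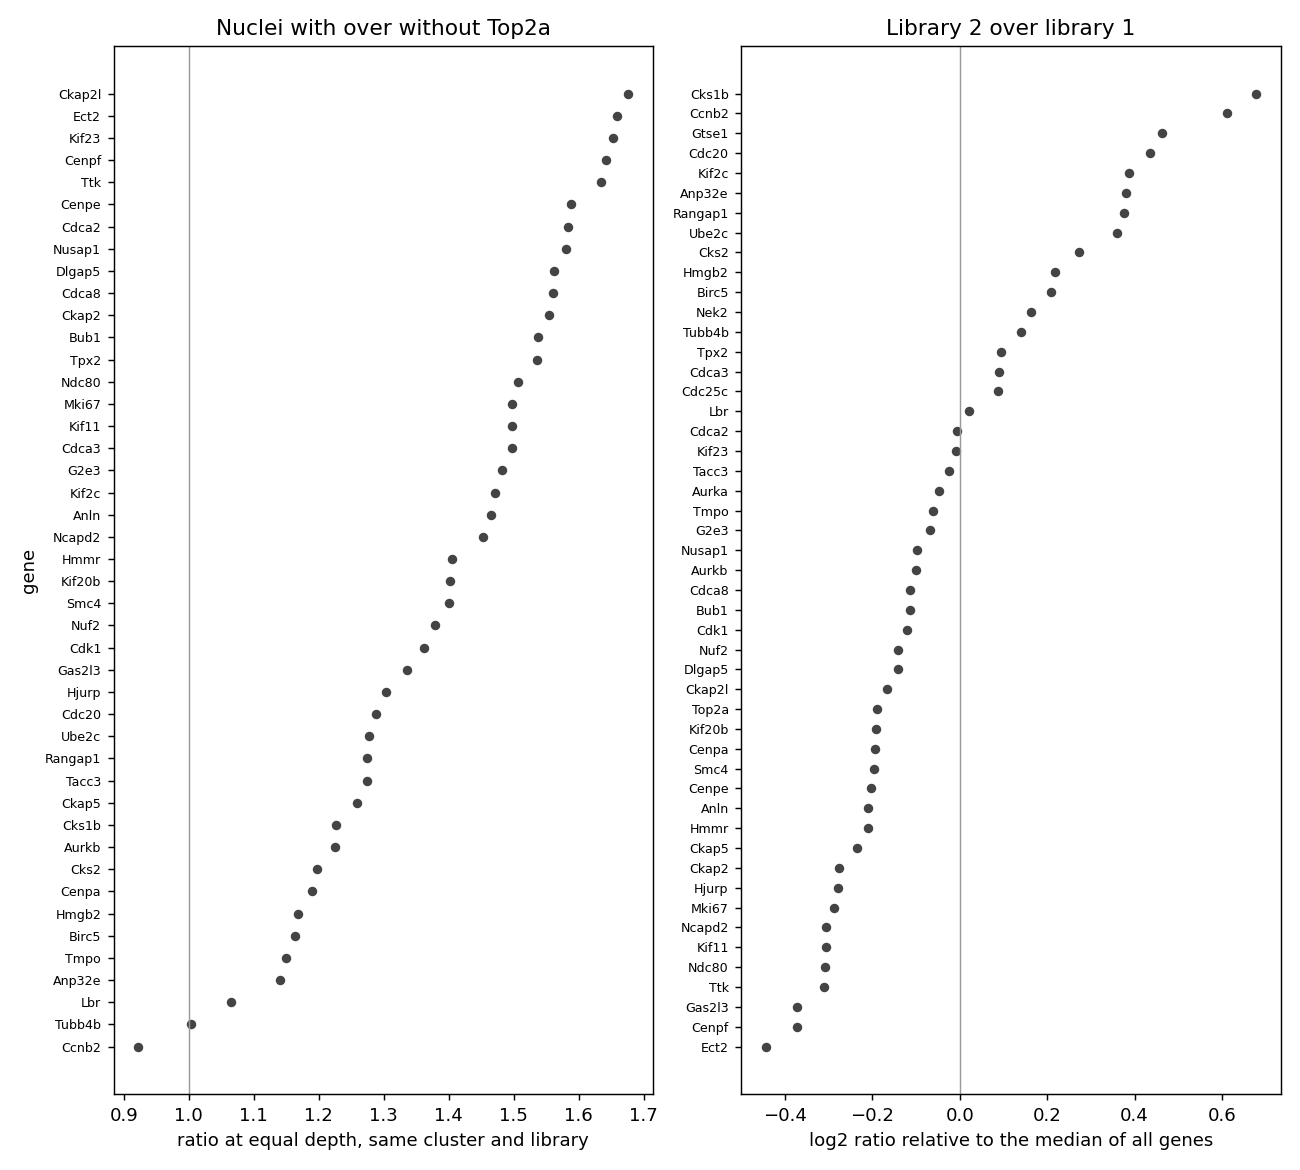
Left, ratio of the level of each gene (y axis) in nuclei with over nuclei without a Top2a UMI, at equal depth and within cluster and library, for 44 members. Right, log2 ratio of library 2 over library 1 relative to the median of all genes for 49 members. On the left the points run from 0.922 (Ccnb2) to 1.68 (Ckap2l), and on the right from -0.44 (Ect2) to 0.678 (Cks1b), inside 2-fold.

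All 50 members had an ATAC peak within 1 kb of the start interval, beside 64.3% of all gene symbols. Of the members, 43 had 1 peak and 7 had 2. Of the 57 peaks, 51 overlapped the interval itself and 17 also lay within 1 kb of another gene, whose accessibility cannot be told apart. The accessibility of these promoters was flatter across lineages than the RNA: the median fold between the highest and the lowest lineage was 1.81 and 1.62 for the main peak of a member, and 4.91 and 3.41 for its RNA, in libraries 1 and 2. The RNA medians left out members without a UMI in their lowest lineage, such as Gtse1 and Nek2, which the peak medians kept. RNA rests on fewer counts than the peaks, and the part of counting error in this difference was not tested.

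Summed over the 57 peaks, NeuP-like nuclei were the highest of the 9 lineages with 3643 (3533 to 3756) counts-per-million of all ATAC counts in library 1 and 3148 (3068 to 3229.9) in library 2. Pro-B-like nuclei held 2988 (2954 to 3021) and 2882 (2828 to 2936) and GMP-like nuclei 2407 (2357 to 2458) and 2279.8 (2246 to 2314). Intervals were computed on pairs of counts, since 82.5% of the nonzero peak entries were even. In the 51 peaks over the interval, the fold between the highest and the lowest lineage was 1.54 (NeuP-like over pDCP-like) and 1.40 (NeuP-like over GMP-like). With nuclei of at least 500 genes, 5 lineages held 100 nuclei in each library and NeuP-like (25 and 34 nuclei) was not among them, and the fold over these 5 was 1.291 and 1.247 with EryP-like nuclei highest. Per count in all promoter peaks, a scale chosen after the data were seen, it fell to 1.27 and 1.21, as NeuP-like nuclei had 60.4% and 56.4% of their counts in promoter peaks, against 49.9% and 48.8% in GMP-like nuclei.

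The main peaks of Hjurp, Cdca3, Cdca2, Tubb4b and Cks2 held the most counts, those of Cdca3 and Cdca2 within 1 kb of Usp5 and Kctd9 as well. They ranged from 9492 (Cks2) to 19878 (Hjurp) in library 1 and from 9138 (Cks2) to 22222 (Hjurp) in library 2. The Hjurp peak lies at chromosome 1, 88277107 to 88277970. The fewest were counted at Psrc1 (1362 and 1602), Gas2l3 (2644 and 2868), Ccnb2 (2781 and 2984), Aurkb (2947 and 3136) and Bub1 (3119 and 3257). The order of the peaks was not that of the RNA: Hjurp RNA stood at 142 and 91.9 CPM over all nuclei, and Top2a, at 806 and 555 CPM, had a peak with 5044 and 5023 counts.

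In the pair of pro-B-like clusters, which was chosen on the RNA of the members, the promoter peaks were a readout of their own. Over all 50 members the main peak was higher in the Cplx2 cluster for 33 in each library (66.0%), with a median of 1.09-fold in library 1 and 1.11-fold in library 2. Among the main promoter peaks of all genes with at least as many counts as the lowest member, 50.2% of 10443 and 51.2% of 10271 were higher, with medians of 1.001-fold and 1.01-fold. The peak ratios ran from 0.774 to 1.53 in library 1 and from 0.624 to 3.26 in library 2, where Psrc1 (3.26) and Ccnb2 (2.09) were past 2-fold, both on few counts. Past 2-fold were thus 0 and 2 members, beside 0.967% and 2.43% of all these peaks. The Top2a peak was 1.41-fold higher in both libraries, and the Nusap1 peak 1.53-fold and 1.44-fold.

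**Figure D4:**
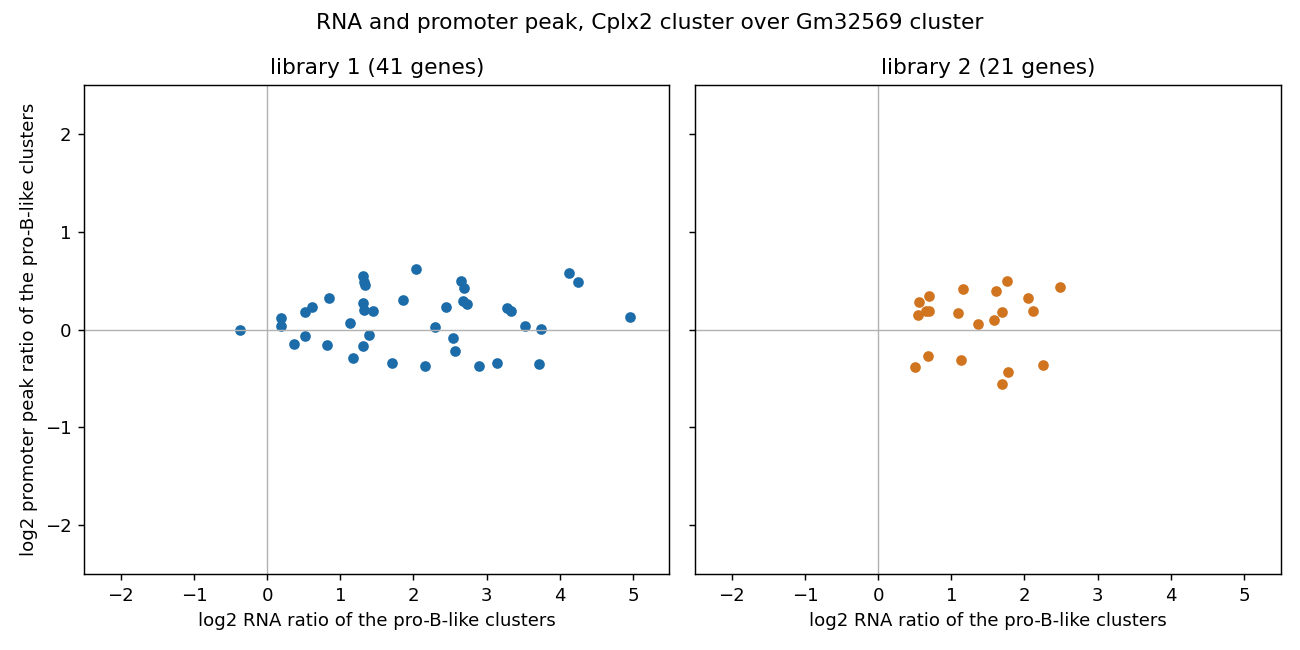
Log2 ratio of the Cplx2 over the Gm32569 pro-B-like cluster in RNA (x axis) and in the main promoter peak (y axis), 1 point for each member with RNA in both clusters and at least 50 UMIs in the pair, 41 in library 1 (left) and 21 in library 2 (right). The RNA ratios of these members run from 0.772 to 31.2 in library 1, and their peak ratios from 0.774 to 1.53 in library 1 and from 0.680 to 1.41 in library 2.

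The promoters shared sequence elements that the list did not use. G2/M promoters are known to carry a cell cycle homology region (CHR), TTTGAA or TTCAAA by strand, which the DREAM complex binds, and CCAAT boxes (CCAAT or ATTGG), which NF-Y binds. In the RefSeq table of promoters (GRCm38.p6, 250 bases before to 50 after the start), 44 of the 50 members were matched. Of these, 31 (70.5%) held the CHR letters on either strand, beside 18.1% of all 27025 promoters. CCAAT boxes stood in 34 (77.3%), beside 37.9%, and both in 26 (59.1%), beside 7.12%. At least 2 CCAAT boxes stood in 26 (59.1%), beside 12.2%.

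The excess over all promoters was seen in other windows as well. From 100 bases before to 50 after the start, a window chosen after the data were seen, 26 of 44 members (59.1%) held the CHR letters, beside 8.08% of all promoters. In the 51 peaks over the starts, with a median length of 882 bases, 43 (84.3%) held them, beside 39.96% of 37270 promoter peaks with a median length of 869 bases. The match nearest the start lay at a median of 15 bases before it for the CHR and 21 for the CCAAT box. The other mitosis genes had the CHR letters in 26 of 40 promoters (65.0%), and the S phase genes in 5 of 31 (16.1%) beside CCAAT boxes in 22 (71.0%). A match of letters is a description and not a bound site.

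The 6 promoters below are those of the members with both elements and the most UMIs, shown because they carry the elements in different number and spacing. Each gives the 250 bases before the RefSeq start in GRCm38.p6, 5′ to 3′ on the strand of the gene, with CHR and CCAAT letters of either strand in capitals.
Hmgb2, chr8:57511593-57511842, + strand: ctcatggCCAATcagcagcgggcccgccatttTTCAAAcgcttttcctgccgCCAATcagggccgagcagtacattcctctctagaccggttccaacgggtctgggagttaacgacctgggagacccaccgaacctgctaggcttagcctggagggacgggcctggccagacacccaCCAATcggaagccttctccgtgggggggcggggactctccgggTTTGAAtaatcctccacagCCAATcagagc
Top2a, chr11:99024190-99024439, - strand: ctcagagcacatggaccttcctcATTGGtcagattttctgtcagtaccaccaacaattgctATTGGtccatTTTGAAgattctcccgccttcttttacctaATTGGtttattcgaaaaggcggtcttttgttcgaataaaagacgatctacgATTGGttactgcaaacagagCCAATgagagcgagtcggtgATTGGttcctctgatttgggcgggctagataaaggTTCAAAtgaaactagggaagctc
Mki67, chr7:135716380-135716629, - strand: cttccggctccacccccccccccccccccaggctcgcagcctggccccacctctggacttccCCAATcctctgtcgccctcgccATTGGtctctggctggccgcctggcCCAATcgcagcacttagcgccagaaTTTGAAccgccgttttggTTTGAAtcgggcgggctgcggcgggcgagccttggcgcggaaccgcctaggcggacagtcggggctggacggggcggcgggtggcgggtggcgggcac
Lbr, chr1:181842402-181842651, - strand: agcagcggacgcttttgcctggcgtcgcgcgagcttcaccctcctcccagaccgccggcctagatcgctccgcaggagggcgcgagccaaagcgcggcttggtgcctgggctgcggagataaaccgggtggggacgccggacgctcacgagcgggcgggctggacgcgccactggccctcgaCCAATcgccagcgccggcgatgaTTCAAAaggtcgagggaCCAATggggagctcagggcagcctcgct
Kif11, chr19:37376132-37376381, + strand: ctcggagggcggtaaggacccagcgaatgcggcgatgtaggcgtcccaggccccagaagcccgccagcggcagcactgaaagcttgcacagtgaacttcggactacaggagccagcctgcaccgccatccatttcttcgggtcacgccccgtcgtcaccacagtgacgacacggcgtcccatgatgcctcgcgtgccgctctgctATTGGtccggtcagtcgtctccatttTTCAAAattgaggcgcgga
Ckap5, chr2:91526512-91526761, + strand: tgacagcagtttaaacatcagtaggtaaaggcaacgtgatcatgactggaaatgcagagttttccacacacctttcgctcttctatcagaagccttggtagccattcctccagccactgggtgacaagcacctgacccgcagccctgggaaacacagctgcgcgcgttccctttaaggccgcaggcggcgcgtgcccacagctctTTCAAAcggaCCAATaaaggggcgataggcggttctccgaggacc

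Top2a held 6 CCAAT boxes and 2 CHR matches in these 250 bases, and Hmgb2 4 and 2. Mki67 held 3 CCAAT boxes and 2 CHR matches, Lbr 2 and 1, and Kif11 and Ckap5 1 of each. The CHR match nearest the start lay 23 bases before it in Top2a, 30 in Hmgb2, 19 in Kif11, 45 in Lbr and Ckap5 and 98 in Mki67. The number of elements did not order the genes by lineage contrast: Kif11, with 1 of each, had a pooled fold of 6.49 between pro-B-like and GMP-like nuclei, and Hmgb2, with 6 elements in all, one of 2.31.

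Outside the lists, the genes whose level was most like the summed members over the 40 points of cluster and library were Dek (Pearson r = 0.716), Zfp367 (0.685), Pclaf (0.680), Rad21 (0.623), Lmnb1 (0.594), Fbxo5 (0.564), H2afx (0.559), Arl6ip1 (0.554), Spag5 (0.531) and Nucks1 (0.530), of 4108 genes considered. The summed S phase genes stood at 0.544. These points share libraries and depth, and the values describe likeness of level only. Marker lists of macrophages, plasma cells and stroma or endothelium stood at 3.4, 171 and 173 CPM in the Cplx2 cluster of library 1 and at 29.0, 16.1 and 71.0 in GMP-like nuclei. In library 2 they stood at 3.4, 126 and 150 CPM in the Cplx2 cluster and at 35.9, 17.2 and 87.5 in GMP-like nuclei. The stroma or endothelium list was higher still over all nuclei (211 and 162 CPM) and in LMPP-like nuclei (272 and 253). The plasma cell list was at 67.7 and 23.0 CPM over all nuclei, below the Cplx2 cluster, and its part was not tested.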

How the data were processed

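Single-nucleus multiome libraries of sorted Lin- cKit+ bone marrow cells were analysed from the 1 deposited matrix. Per the methods and file headers, the authors aligned the reads with Cell Ranger ARC 2.0.0 to GRCm38 (mm10) and deposited raw counts without normalization (UMIs per gene, ATAC counts per peak), with aligner settings not given in the sources used here. The submitters' notes also list Seurat 4.0.3 and Signac 1.3.0, whose filtered object was not used here.

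The members and lists used here were chosen with earlier results of these data known. Barcodes below 200 genes, or outside 1000 to 50000 ATAC counts, were left out, which left totals of 10294527 and 12537328 UMIs and 118239764 and 128699726 ATAC counts in libraries 1 and 2. No replicates exist, so no test was run. Levels are UMIs over UMIs outside Gm42418, Gm26917 and AY036118, with exact Poisson, binomial or conditional binomial intervals (95%). The matrix held 0 mitochondrial rows. Gene IDs were matched to the GENCODE annotation for 99.8%. Genes with near-identical copies, such as Tubb4b and Hmgb2, may have lost shared reads.

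RNA (30 principal components) and ATAC (latent semantic components 2 to 30), without the cell cycle genes and peaks, were corrected between libraries with RNA anchors, joined by weighted nearest neighbours and clustered (Louvain, resolution 0.8, Seurat 5.3.0, R 4.3.3). This correction can remove true differences. A name needed at least 3 markers of its list raised by a log2 ratio of 1 with 10 counts each, and 1 of them among the 10 leading genes. Scrublet (scanpy 1.11.5) called 3 doublets (0.022%), a rate at which it has not worked, so the nuclei in the top 8% of scores (1031) were left out as an alternative. Tables used Python 3.11.15, numpy 2.4.6 and scipy 1.17.1.

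Genes were called at 2-fold with at least 20 UMIs in each library (libraries), at 2-fold with 50 UMIs in the pair (pro-B-like clusters) and at 1.5-fold with 100 UMIs (Top2a). On simulated counts, 95.5% of 200 genes changed 3-fold were called among the 3922 genes of the pro-B-like pair in library 1, 98.5% of those changed 3-fold among the 10611 genes between libraries, and 99.0% of those changed 2-fold among the 6761 genes of the Top2a comparison. Of unchanged genes, 3.52%, 0.163% and 0.838% were called.

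Named were the 10 members with the most UMIs per kb, the 10 highest and 5 lowest pooled folds between lineages, the 5 highest and 5 lowest library ratios, the 2 with the most UMIs in each role, the 5 highest and 5 lowest promoter peaks, and the 10 other genes most like the summed members (correlated over clusters and libraries, although lineages had been planned), with Nuf2, Ncapd2, Ube2c and a few others named for their role or after their values were seen. Alternatives changed the filters, doublets, clustering, total, thinning, minimum counts, peaks and motif window.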

Additional observations from a re-analysis of the deposited data

How the results depend on the processing

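Of 111 alternatives, 75 stayed within the error of the reported value, 35 moved and 1 turned its sign. For median member ratios this error was that of the summed members, and for ATAC medians it was not a counting error. No paired analysis was possible because the 2 libraries carry no group and no test was run. The cause of these moves was not tested. The alternatives named as added were chosen after seeing the data.

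The fold of the summed members between the highest and lowest lineage, pro-B-like over GMP-like, moved from 3.13 to 3.525 in library 1 with clusters of 1 name kept apart (added), where the Cplx2 cluster stood over the Gm32569 cluster. In library 2 it moved from 2.63 to 2.852 so, to 2.47 with nuclei of at least 500 genes, to 2.784 without the top 8% of doublet scores and to 2.457 with the total of all genes. The promoter fold, with NeuP-like nuclei highest, moved from 1.54 to 1.291 (500 genes, EryP-like over pDCP-like among the 5 lineages left, without NeuP-like), 1.6 (doublet scores) and 1.267 (per count in all promoter peaks, added) in library 1, and from 1.40 to 1.247 (500 genes, EryP-like over GMP-like among the same 5) and 1.212 (promoter peaks, added) in library 2.

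The share of all nuclei with 3 or more members moved in library 1 from 48.55% to 50.56% (500 genes), 69.18% (2 members), 68.86% (unthinned), 28.76% (300 UMIs) and 15.09% (6 members, added), and in library 2 from 42.12% to 51.06%, 66.43%, 59.18%, 20.88% and 6.99% in the same order. In pro-B-like nuclei it moved from 77.73% to 83.06%, 89.09%, 81.77%, 60.65% and 47.27% in library 1, and from 82.20% to 93.18% (2 members), 55.49% (300 UMIs) and 37.69% (6 members, added) in library 2.

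The median member ratio between libraries, relative to all genes, turned from -0.0999 to 0.04427 over all nuclei with at least 500 genes, and moved to -0.1317 (doublet scores) and -0.1304 (minimum of 10 UMIs). It moved from -0.1403 to -0.07637 in pro-B-like nuclei with no correction between libraries, from 0.2059 to 0.4573 (500 genes) and 0.03758 (10 UMIs) in HSC-like nuclei, and from 0.3469 to 0.1619 in GMP-like nuclei with cell cycle genes kept in the clustering. The CHR letters stood in 70.5% of the 44 matched member promoters and in 84.314% of the 51 member peaks over the start, a longer window and another denominator. Members with few UMIs in a lineage, such as Aurkb, Nek2 and Psrc1, are limited by depth.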
